A study of Mus musculus with 2 samples.

Results

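Notch signalling in visceral fat was described from the 10 genes Notch1, Notch2, Notch3, Notch4, Jag1, Jag2, Dll4, Rbpj, Hey1 and Heyl, taken by symbol from the 56980 genes counted in single nuclei. Both libraries came from gonadal fat (VAT) of female C57BL/6J mice aged 2 months, with no treatment or transgene named, and are called VAT young replicate 1 and replicate 2. The study set such young fat beside aged and subcutaneous fat, and those libraries were not analysed here. The protocol names nuclei of dissected tissue on the Singleron GEXSCOPE chip, whereas each sample's description gives 10x Genomics as platform and Adipocytes as cell type. Only 5926 of 15058 nuclei fell into the cluster with adipocyte markers, so the nuclei were not adipocytes alone.

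Notch receptors are membrane proteins that are cut when a ligand on a neighbouring cell binds them, and the freed intracellular part enters the nucleus and joins the DNA-binding protein RBPJ. Without it, RBPJ holds corepressors at its targets, among which are the Hes and Hey repressor genes. In blood vessels, DLL4 and NOTCH1 guide sprouting and arterial fate in the lining, NOTCH4 is an endothelial receptor, and JAG1 from the lining engages NOTCH3 on smooth muscle cells and pericytes.

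Of 24492 called barcodes, 15058 nuclei had over 500 genes, over 1000 unique molecular identifiers (UMIs) and under 15% mitochondrial UMIs. Replicate 1 gave 2833 nuclei and 8466237 UMIs, and replicate 2 gave 12225 nuclei and 48068273 UMIs. The libraries stood apart in quality, with a median mitochondrial share of 6.20% in replicate 1 and 0.621% in replicate 2, and 27 barcodes were found among the passing nuclei of both. Nuclei were clustered without the Notch pathway genes as features, and 11934 nuclei in 7 clusters could be named from markers as 6 types. Endothelial-like nuclei numbered 69 and 422 in the libraries in this order, smooth muscle-like 23 and 158, immune-like 229 and 1095, fibro-adipogenic progenitor (FAP)-like 258 and 1410, mesothelial-like 245 and 2099, and adipocyte-like 1559 and 4367. The smooth muscle-like cluster held nuclei with pericyte markers too. A further 3124 nuclei in 2 clusters stayed unnamed. Levels are CPM, a gene's UMIs scaled so that all genes of a type in a library sum to the same total, and their 95% exact Poisson intervals, where given, cover counting error only. Adipocyte markers were found in every type. The 8 on the list summed to 18330 and 23790 CPM in adipocytes and to between 3644 and 6851 CPM in the other 5 types. Whether this was free or carried-over RNA was not tested, nor was the part of such RNA in the low levels of the Notch genes.

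All 10 genes were found in GENCODE vM39 on GRCm39, the build the authors aligned to. Notch3 lies at chr17:32339794-32385893 on the minus strand and Notch4 at chr17:34783220-34807477 on the plus strand. Dll4 lies at chr2:119156170-119166443 on the plus strand, and Rbpj at chr5:53623494-53814704 on the plus strand. Of the 10, only Heyl has no annotated gene overlapping its span; for the other 9 the overlapping transcripts, mostly long noncoding RNAs on the opposite strand, could share reads, as use of strand in the counting is not given in the sources used here. RefSeq promoter windows of 250 bases before the RefSeq start were matched for 8 members, and not for Hey1 and Heyl. Both windows of Rbpj, from chr5:53747438 and from chr5:53747578, lay within the gene span given above, so they do not precede the whole gene. A stretch of the former is printed. The Notch1 window also lay within the span of its gene. The stretches outside annotated exons of their own gene are shown for 4 members that mark the smooth muscle coat (Notch3), the endothelial lining (Notch4 and Dll4) and the immune nuclei (Rbpj), on the strand of the gene. Capitals mark GGAA on either strand (GGAA or TTCC), the core letters shared by sites of ETS factors, a family active in endothelial and in myeloid cells.
Notch3, chr17:32385894-32386114: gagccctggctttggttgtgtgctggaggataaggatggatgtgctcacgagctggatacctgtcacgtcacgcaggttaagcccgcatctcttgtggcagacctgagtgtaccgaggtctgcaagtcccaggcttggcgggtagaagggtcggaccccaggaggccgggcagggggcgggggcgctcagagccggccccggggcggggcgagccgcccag
Notch4, chr17:34783019-34783219: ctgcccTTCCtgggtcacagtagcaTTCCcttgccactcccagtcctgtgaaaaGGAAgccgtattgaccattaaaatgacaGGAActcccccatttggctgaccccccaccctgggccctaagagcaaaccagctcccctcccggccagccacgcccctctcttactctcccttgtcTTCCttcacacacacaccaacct
Dll4, chr2:119156015-119156169: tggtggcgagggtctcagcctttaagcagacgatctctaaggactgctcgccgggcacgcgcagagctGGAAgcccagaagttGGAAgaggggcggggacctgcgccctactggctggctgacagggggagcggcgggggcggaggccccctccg
Rbpj, chr5:53747438-53747555: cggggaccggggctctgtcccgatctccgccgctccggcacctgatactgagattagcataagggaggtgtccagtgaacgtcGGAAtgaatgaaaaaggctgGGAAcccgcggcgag

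GGAA was found 5 times in the Notch4 stretch, 2 times in Dll4, 2 times in Rbpj and 0 times in Notch3. Of 32851 RefSeq windows of 250 bases, 93.4% hold it. Over whole windows it was also found in Notch1, Notch2 and Jag1, the last with its highest mean in smooth muscle. It was not found in Jag2, which was highest in endothelial nuclei. With GGAA in so large a share of all windows, its presence cannot tell the types apart, and a link to them was not tested. These 4 letters were searched after the longer ETS letters had been found in no member. Those longer letters, CCGGAA, in 12.0% of windows, were in none of the members' windows, nor were the GATA letters AGATAA (9.99%) or the CArG box of smooth muscle genes (1.47%). The RBPJ core TGGGAA, in 21.6% of windows, was found in the windows of Rbpj alone among the members, and the copy 149 to 144 bases before the start overlaps the second capital stretch printed for Rbpj. These are matches of letters, each searched on both strands, and GGAA lies within the other ETS letters and within the RBPJ core.

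The members fell into 3 groups by the type with their highest level (plot of levels by type). Notch3, Heyl and Jag1 had their highest mean in smooth muscle, Notch1, Notch4, Jag2, Dll4 and Hey1 in endothelial nuclei, and Notch2 and Rbpj in immune nuclei. For 9 of the 10 members both libraries of the top type lay above both libraries of the next type; for Jag1 the smooth muscle and endothelial values overlapped. Differences were called at a Benjamini-Hochberg adjusted p under 0.05 over the 13050 genes tested, all 10 members among them, and a log2 fold change of at least 1. They come from the quasi-likelihood test of edgeR on the UMIs summed per library and type. The types were built from these same nuclei, so a p measures separation against the spread of 2 libraries per type.

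**Figure D1:**
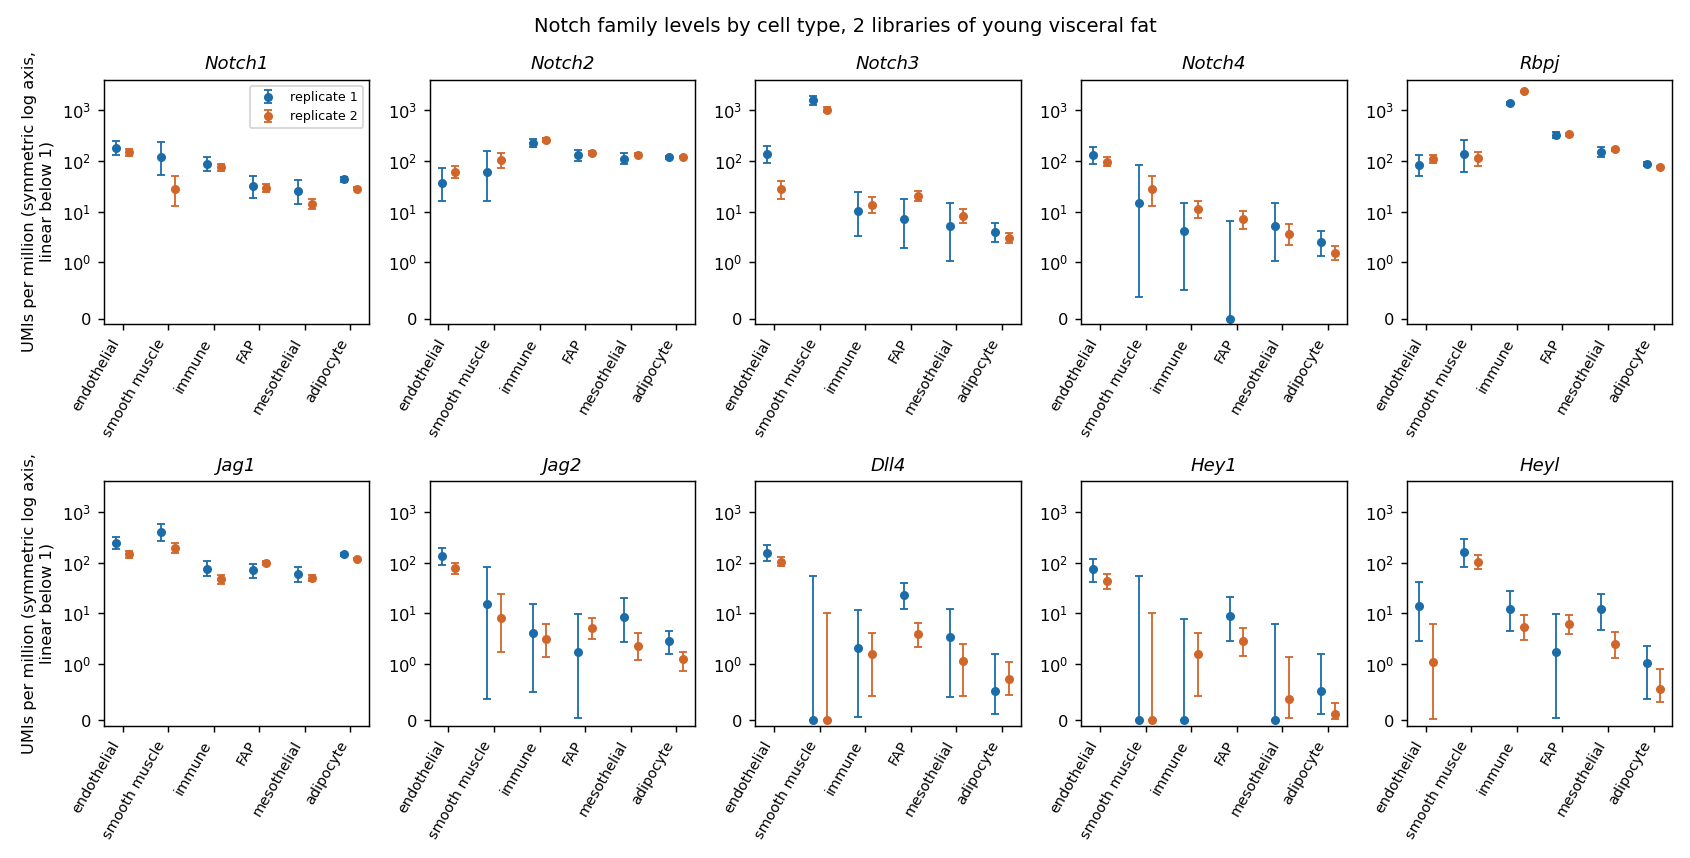
Level of each of the 10 genes, in CPM on a symmetric log axis that is linear below 1, in 6 cell types and in replicate 1 (blue) and replicate 2 (orange). Bars are 95% exact Poisson intervals of the count, and Notch3 in smooth muscle stands at 1561 and 1034 against 134 and 27.5 in endothelial nuclei.

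Among the receptors, Notch3, which is needed for the upkeep of arterial smooth muscle, had the steepest gradient between types. Its level in smooth muscle nuclei was 1561 CPM (interval 1276 to 1892, 104 UMIs) in replicate 1 and 1034 CPM (932 to 1143, 377 UMIs) in replicate 2. At least one Notch3 UMI was seen in 19 of 23 and in 85 of 158 of these nuclei, that is 82.6% and 53.8%, and after thinning each nucleus to 1000 UMIs in 69.6% and 47.5%. In adipocytes, which are not known for this receptor, it was seen in 1.22% and 1.72% of nuclei at higher median depths (2971 and 6280 UMIs). Against the mean of the other types, Notch3 was higher in smooth muscle by a log2 fold of 6.30 ± 0.21 (SE, edgeR adjusted p = 1.24e-39), in both libraries. This difference stayed between 6.15 and 6.94 under the alternatives.

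Endothelial nuclei came next for Notch3 at 134 and 27.5 CPM, and were higher than the mean of the other types by a log2 fold of 1.16 ± 0.32 (edgeR adjusted p = 0.00651). The 2 libraries differed widely here. In replicate 1, 27 of the 29 endothelial Notch3 UMIs lay in the 28 of 69 nuclei that also had a UMI of a smooth muscle or pericyte marker, and in replicate 2, 21 of 25 lay in such nuclei, 145 of 422. The nuclei with such a UMI were at 204 and 54.1 Notch3 CPM. The others were shallower, at a median of 1608 and 1554 UMIs against 2019 and 1678.5 over all endothelial nuclei. The part of depth in this split was not tested. Left without the nuclei that had such a UMI, a choice made after seeing the data, the endothelial Notch3 level was 24.0 and 7.68 CPM. The log2 difference from the other types then turned to -1.34 (edgeR adjusted p = 0.141). Without replicate 1 it was 0.11. FAP nuclei had 7.04 and 20.7 CPM, immune nuclei 10.3 and 13.7, mesothelial nuclei 5.10 and 8.26, and adipocytes 4.04 and 3.02.

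Notch4, a receptor of the endothelial lining, was at 130 and 96.8 CPM in endothelial nuclei and at 15 and 27.4 CPM in smooth muscle, where these values rest on 1 and 10 UMIs. In each of the other 4 types it was at 11.4 CPM or lower, with 0 UMIs in the FAP nuclei of replicate 1. All endothelial values lay above all others, and the log2 difference from the mean of the other types was 4.05 ± 0.35 (edgeR adjusted p = 2.13e-16). Notch1, the receptor of tip and stalk choice and of lymphocyte development, was at 181 and 147 CPM in endothelial nuclei, 86.7 and 74.5 in immune nuclei, and 120 and 27.4 in smooth muscle, where the libraries differed most. Adipocytes had 43.0 and 28.4 CPM, FAP nuclei 31.7 and 29.5, and mesothelial nuclei 25.5 and 14.4. The values of smooth muscle overlapped with those of immune, of adipocyte and of FAP nuclei. Endothelial nuclei were higher in Notch1 than the other types by a log2 fold of 2.02 ± 0.23 (edgeR adjusted p = 1.48e-11), and mesothelial nuclei lower by -1.73 ± 0.28 (5.72e-07).

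Notch2, the receptor tied to marginal zone B cells and to monocyte fates, had the flattest profile of the receptors. It was at 229 and 259 CPM in immune nuclei, 129 and 143 in FAP nuclei, 111 and 134 in mesothelial nuclei, 118 and 119 in adipocytes, 60.04 and 104 in smooth muscle, and 37.1 and 60.5 in endothelial nuclei. Only the immune values stood clear above the rest, while FAP, mesothelial and adipocyte values overlapped, as did those of smooth muscle and endothelial nuclei. Immune nuclei were higher than the mean of the other types by a log2 fold of 1.19 ± 0.18 (edgeR adjusted p = 6.44e-08), and endothelial nuclei were lower by -1.45 ± 0.26 (6.12e-06). Per kilobase of merged exon, Notch3 led the 4 receptors in smooth muscle with 173 and 115 CPM per kilobase, followed at 9.25 or lower by the others in each library. Of the other 3, Notch1 was at 8.44 and 1.93 and Notch2 at 5.33 and 9.25 on that scale. In endothelial nuclei Notch4 was at 14.7 and 10.9, Notch1 at 12.7 and 10.4 and Notch3 at 14.9 and 3.05 on the same exon scale. In immune nuclei Notch2 (20.3 and 23.0) was above Notch1 (6.09 and 5.23) per kilobase of exon. Whether intronic reads were counted is not given in the sources used here, and per kilobase of the whole gene span these gaps were different: 1.67 and 1.89 for Notch2 against 1.48 and 1.27 for Notch1 in immune nuclei, and 5.35 and 3.99 for Notch4 against 3.07 and 2.51 for Notch1 in endothelial nuclei. Notch3 led in smooth muscle on the span scale too, with 33.9 and 22.4 CPM per kilobase.

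The ligands Dll4 and Jag2 were endothelial. Dll4, the ligand of arterial and sprouting endothelium, was at 157 and 104 CPM in endothelial nuclei (34 and 95 UMIs) and at 0 UMIs in smooth muscle in both libraries, which allows up to 6.95 CPM over the libraries together (3 counts). It was at 3.40 CPM or lower in mesothelial, immune and adipocyte nuclei. FAP nuclei of replicate 1 had 22.9 CPM, from 13 UMIs in 5 nuclei, against 3.89 CPM in replicate 2. The 9 endothelial markers summed to 535 and 537 CPM in FAP nuclei, against 7424 and 6816 CPM in endothelial nuclei, and their part in this Dll4 level was not tested. Endothelial nuclei were higher than the mean of the other types (edgeR adjusted p = 3.61e-21).

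Jag2, a ligand known from endothelium and epithelium, was at 134 and 78.1 CPM in endothelial nuclei, 15 and 8.22 CPM in smooth muscle (1 and 3 UMIs), and 8.50 CPM or lower elsewhere. The endothelial values stood apart from all others, by a log2 fold of 4.46 ± 0.38 against the mean of the other types (edgeR adjusted p = 8.77e-17).

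Jag1, a ligand made by endothelial and by mural cells, was found in all 6 types. It was at 405 and 195 CPM in smooth muscle, 245 and 145 in endothelial nuclei, 148 and 120 in adipocytes, 70.4 and 97.4 in FAP nuclei, 76.4 and 46.6 in immune nuclei, and 59.5 and 49.4 in mesothelial nuclei. Neighbours in the first 3 places overlapped, and so did those in the last 3. Smooth muscle nuclei were higher than the mean of the other types by a log2 fold of 1.27 ± 0.24 (edgeR adjusted p = 4.21e-05), a difference that was 0.87, under the log2 fold of 1, with the mitochondrial limit at 5%. Endothelial and adipocyte nuclei were higher by 0.80 ± 0.21 and 0.76 ± 0.17, which did not reach the fold asked for. Immune and mesothelial nuclei were each lower, both at -1.24 (SE 0.23 and 0.22).

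Rbpj, the nuclear end of the pathway, had its highest level outside the vessel wall. It was at 1371 CPM (1268 to 1479) and 2381 CPM (2321 to 2441) in immune nuclei, with a UMI in 64.6% and 76.9% of them, or 51.5% and 67.0% after thinning. FAP nuclei had 327 and 334 CPM, mesothelial nuclei 150 and 171, smooth muscle 135 and 112, endothelial nuclei 83.4 and 110, and adipocytes 87.7 and 77.5, and only the last pair of neighbours overlapped. Immune nuclei were higher than the mean of the other types by a log2 fold of 3.63 ± 0.15 (edgeR adjusted p = 1.42e-34), between 3.28 and 3.95 under the alternatives. The study used Rbpj among its own genes for naming immune nuclei, whereas here it served neither as a marker nor as a clustering feature. The pseudogenes Rbpj-ps1 and Rbpj-ps3 are counted by themselves, with 2 and 336 UMIs in the passing nuclei, against 12960 for Rbpj, and reads shared with them could have been split.

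Within the immune nuclei, Rbpj separated the clusters in both libraries, while the count intervals of Notch2 and Notch1 overlapped (plot of the immune clusters). The cluster led by Cd163, Cd209f and Mrc1, genes of tissue-resident macrophages, had 1864 and 3146 Rbpj CPM, and the cluster with Lyz1, Ccr2, Clec9a and Klrk1 among its leading genes had 522 and 614 CPM. The second cluster was mixed, with 5 of 7 macrophage, 4 of 5 dendritic and 5 of 8 T and NK cell markers higher than in other nuclei, against 7 of 7, 1 of 5 and 0 of 8 in the first. For Rbpj the count intervals of the clusters did not overlap in either library. Notch2 was at 202 and 270 CPM in the first cluster and 275 and 234 CPM in the second, with the order turned between libraries. Notch1 was lower in the first cluster in both libraries, at 71.8 and 67.4 CPM against 112 and 90.8 CPM, with overlapping intervals in both. These values are a description of clusters drawn from the same nuclei, and no test was made.

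**Figure D2:**
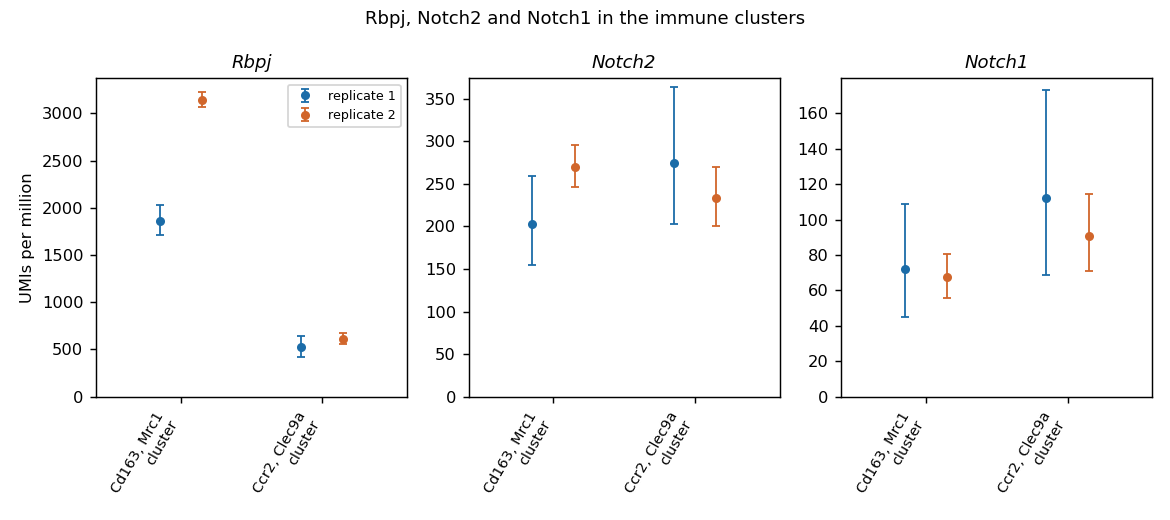
Rbpj, Notch2 and Notch1 in CPM in both immune clusters, replicate 1 in blue and replicate 2 in orange, with 95% exact Poisson intervals. Rbpj was at 1864 and 3146 in the cluster led by Cd163 and Mrc1 and at 522 and 614 in the cluster led by Ccr2 and Clec9a.

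The effectors Hey1 and Heyl, repressors that Notch signalling switches on, fell on opposite sides of the vessel wall. Hey1 was at 74.1 and 42.9 CPM in endothelial nuclei (16 and 39 UMIs) and at 0 UMIs in smooth muscle in both libraries. It was at 8.80 and 2.85 CPM in FAP nuclei, where replicate 1 counts 5 UMIs, and at 1.57 CPM or lower in the other types. Heyl was at 165 and 104 CPM in smooth muscle (11 and 38 UMIs), at 13.9 and 1.10 CPM in endothelial nuclei (3 and 1 UMIs), and at 12.4 CPM or lower in the other types. Endothelial nuclei were higher in Hey1 than the mean of the other types (edgeR adjusted p = 1.82e-14), and smooth muscle nuclei higher in Heyl by a log2 fold of 4.89 ± 0.48 (1.31e-13). Both repressors were higher in their own type in 2 of 2 libraries.

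Counted over the 10 members, endothelial nuclei were higher than the other types in 6 (Notch1, Notch3, Notch4, Jag2, Dll4 and Hey1, beside 7.37% of all genes) and lower in 2 (Notch2 and Rbpj, beside 2.93%). Smooth muscle was higher in 3 (Notch3, Heyl and Jag1, beside 5.03%) and lower in 1 (Rbpj, beside 2.25%). Immune nuclei were higher in 2 (Rbpj and Notch2, beside 10.5%) and lower in 2 (Notch3 and Jag1, beside 6.71%), where Notch3 lost its call with DESeq2 (adjusted p = 0.0521), without the block (0.0611) and with the endothelial nuclei that had mural marker UMIs left out (-0.84, 0.0607), and Jag1 was at -0.93 without replicate 2. Notch1 was called higher in immune nuclei in 3 alternatives, with no integration (1.0), with the mitochondrial limit at 5% (1.02) and with the highest doublet scores removed (1.04). Adipocytes were higher in 0 members (beside 13.7%) by edgeR and by DESeq2, although Jag1 (0.76) and Notch2 (0.49) passed on the edgeR p, and lower in 5 (Notch3, Notch4, Jag2, Rbpj and Heyl, beside 26.6%). With DESeq2, Dll4 (adjusted p = 7.05e-05) and Hey1 (4.79e-05) were called lower too, and without the filter on low counts Jag1 was called higher (1.15) while Rbpj missed the fold (-0.81). Mesothelial nuclei were lower in 4 (Notch1, Notch3, Notch4 and Jag1, beside 2.70%) and higher in 0 (beside 10.2%), where none reached an unadjusted p under 0.05 by edgeR or DESeq2. The mesothelial call of Notch4 was lost in 5 of the 10 alternatives that altered the fit (adjusted p from 0.0704 to 0.105), and its difference was -0.46 without replicate 2. FAP nuclei were higher in 0 members (beside 7.46%) and lower in 0 (beside 1.89%) by edgeR and by DESeq2. No share of all genes is given for an unadjusted edgeR p under 0.05, and Dll4 (2.32) turned to -0.75 with the mitochondrial limit at 5%. At that unadjusted p, FAP nuclei had positive differences for Dll4, Rbpj and Hey1 and negative ones for Notch1, Notch3 and Notch4. Of these, Rbpj (0.76 ± 0.17, edgeR adjusted p = 0.000513) and Notch1 (-0.74 ± 0.26, 0.0393) passed the adjusted p but not the fold, and Notch4 (-1.07 ± 0.48, 0.148) was called lower in 6 of those 10 alternatives. Notch3 was called lower in FAP nuclei in 2 of them, with 15 principal components (-1.08, 0.00498) and with no integration (-1.04, 0.0211).

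The vessel wall, as the mean of the endothelial and smooth muscle log levels, was then set against the immune nuclei. It was higher in 4 of the 10 members, beside 7.16% of all 13050 genes, and lower in 2, beside 9.26%. Higher were Notch3 (log2 fold 4.27 ± 0.36, edgeR adjusted p = 9.28e-17), Jag2 (3.11 ± 0.80, 0.00205), Notch4 (2.47 ± 0.55, 0.000265) and Jag1 (1.90 ± 0.26, 7.91e-09). Lower were Rbpj (-4.15 ± 0.21, 1.89e-27) and Notch2 (-1.84 ± 0.24, 1.62e-09). Heyl (1.56 ± 0.75, 0.154) and Notch1 (0.12 ± 0.30, 0.866) did not pass. The median log2 difference was 1.73 over the 8 members with UMIs in each of the 3 types, and -0.05 over 12767 such genes. Dll4 and Hey1 did not pass (0.961 and 0.953), and the mean of the log levels takes in smooth muscle, where both had 0 UMIs. With both kinds of wall nuclei summed as 1 type, an alternative chosen after seeing the data, 7 members were higher, beside 1164 of 16704 genes. The added ones were Dll4 (5.56, edgeR adjusted p = 1.68e-11), Hey1 (4.72, 8.28e-06) and Heyl (2.29, 0.00474).

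Each side of the wall was therefore also set against immune nuclei by itself, again a choice made after seeing the data (plot of wall against immune). Endothelial nuclei were higher in 7 members, beside 7.79% of all genes, and lower in 2, beside 7.66%. The higher members were Dll4 (log2 fold 6.05 ± 0.67), Hey1 (5.20 ± 0.82), Jag2 (4.76 ± 0.61), Notch4 (3.58 ± 0.52), Notch3 (2.13 ± 0.43), Jag1 (1.70 ± 0.28) and Notch1 (1.04 ± 0.29), with edgeR adjusted p from 7.38e-12 for Dll4 to 0.00477 for Notch1. The Notch3 call was lost without the endothelial nuclei that had mural marker UMIs (-0.42, edgeR adjusted p = 0.798), where its levels of 24.0 and 7.68 CPM stood against 10.3 and 13.7 in immune nuclei, and the difference was 1.03 without replicate 1. Smooth muscle nuclei were higher in 3 members, beside 7.36%, namely Notch3 (6.41 ± 0.36), Heyl (3.96 ± 0.65) and Jag1 (2.10 ± 0.31). They were lower in 2, beside 8.44%. The lower members were Rbpj and Notch2 on both sides, with Rbpj at -4.21 ± 0.27 for endothelial and -4.09 ± 0.30 for smooth muscle nuclei, and Notch2 at -2.20 ± 0.29 and -1.47 ± 0.31. Both contrasts share the immune libraries.

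**Figure D3:**
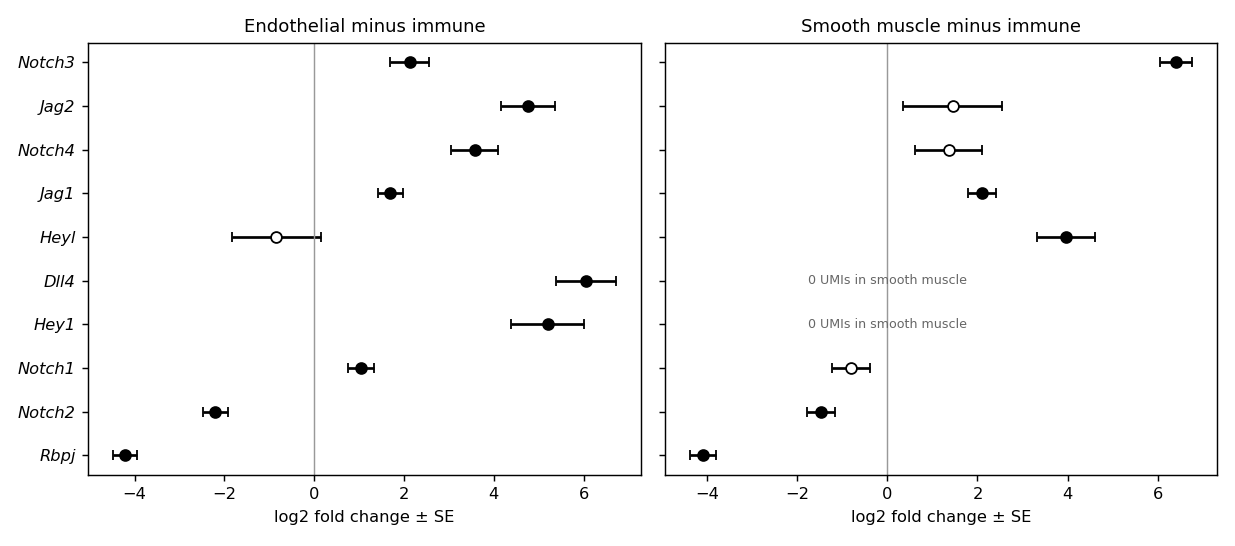
Log2 fold change with its SE of the 10 genes for endothelial minus immune (left) and smooth muscle minus immune (right). Filled points passed the adjusted p and the fold, open points did not, and Dll4 and Hey1 have no point on the right because smooth muscle had 0 UMIs.

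Set against each other, the lining and the coat of the vessel wall split the family. Endothelial nuclei were higher in 5 members (beside 5.03% of all genes) and lower in 2 (beside 4.13%). Dll4 was at least 16.5-fold and Hey1 at least 7.03-fold higher in endothelial nuclei, taken against 3 counts over both smooth muscle libraries (edgeR adjusted p = 1.48e-06 and 0.00103). Jag2 (log2 fold 3.31 ± 0.76, 0.000906), Notch4 (2.22 ± 0.62, 0.00864) and Notch1 (1.85 ± 0.42, 0.000756) were also higher there. The calls of Notch1 and Notch4 were lost when the library was not blocked (edgeR adjusted p = 0.0787 and 0.075), and Notch1 was at 0.86 without replicate 2. Notch3 (-4.28 ± 0.34, edgeR adjusted p = 3.77e-17) and Heyl (-4.81 ± 0.82, 4.35e-06) were lower in endothelial than in smooth muscle nuclei. Notch2 (-0.73 ± 0.37), Jag1 (-0.40 ± 0.30) and Rbpj (-0.12 ± 0.34) did not pass, with adjusted p of 0.285, 0.541 and 0.918.

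The marker lists also split the nuclei within each side of the wall (plot of wall subsets). Endothelial nuclei with a UMI of an arterial marker and none of a venous one numbered 21 and 104, and the reverse 15 and 87, after 3 and 31 nuclei with at least 3 lymphatic marker UMIs had been set aside. The venous list marked these nuclei weakly, with a summed 824 and 419 CPM in endothelial against 375 and 318 CPM in smooth muscle nuclei, and the sides of replicate 1 differed in depth (median 1287 UMIs on the arterial and 4390 on the venous side); the part of either in the values was not tested. Notch1, Notch4, Jag2, Dll4 and Hey1 had the higher level on the arterial side in both libraries. Nuclei with UMIs of neither list (23 and 151) lay below the arterial side for these members in both libraries. They lay above the venous side for Notch4 (67.7 and 109 CPM), Jag2 (90.3 and 80.6) and Dll4 (248 and 87.6). For Notch1 and Hey1 their order against the venous side changed between the libraries. Nuclei with UMIs of both lists (7 and 49) lay above both sides for Hey1 (214 and 116 CPM) and Jag1 (813 and 215) in both libraries. They also did for Notch4 in replicate 1 (471), and for Jag2 (124), Rbpj (215) and Heyl (8.26, from 1 UMI) in replicate 2. They lay below both for Notch1 in replicate 2 (124), and in both libraries for Notch2 (0 and 16.5) and Notch3 (128 and 8.26). In replicate 1, all 5 Hey1 UMIs of these nuclei lay in 1 nucleus, as did 12 of 19 for Jag1 and 8 of 11 for Notch4. The 31 lymphatic-marker nuclei of replicate 2 were above the arterial side in Notch1 (289 CPM), Dll4 (188) and Hey1 (75.4), from 23, 15 and 6 UMIs. Dll4 was at 330 and 121 CPM on the arterial side and at 10.5 and 81.4 CPM on the venous side. Hey1 was at 110 and 60.7 CPM (4 and 13 UMIs) on the arterial and 21.0 and 4.79 CPM (2 and 1 UMIs) on the venous side. Notch1 was at 413 and 191 CPM against 94.4 and 129, Notch4 at 193 and 135 against 63.0 and 71.8, and Jag2 at 248 and 93.3 against 73.4 and 47.9. Jag1 had the reverse order, 138 and 159 CPM on the arterial and 199 and 177 on the venous side. So had Notch2, at 27.5 and 28.0 against 42.0 and 38.3 CPM, from 1 and 6 UMIs against 4 and 8. The count intervals of the sides were separate for Notch1 and Dll4 in replicate 1 and for Hey1 in replicate 2, and overlapped otherwise.

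The smooth muscle-like cluster was divided by whether a nucleus had more UMIs of the 5 pericyte markers (16 and 65 nuclei) or of the 7 smooth muscle markers (7 and 84 nuclei). Notch3 was at 1775 and 1823 CPM in the pericyte-marker nuclei and at 1349 and 546 CPM in the others, with overlapping intervals in replicate 1 and separate ones in replicate 2. Heyl was at 271 and 245 CPM against 59.9 and 18.7 CPM, which rest on 9 and 33 UMIs against 2 and 4, and the intervals were likewise separate in replicate 2 alone. Jag1 changed its order between the libraries, with 331 and 267 CPM against 479 and 145. With 2 libraries and nuclei sorted after clustering, these splits carry no test.

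**Figure D4:**
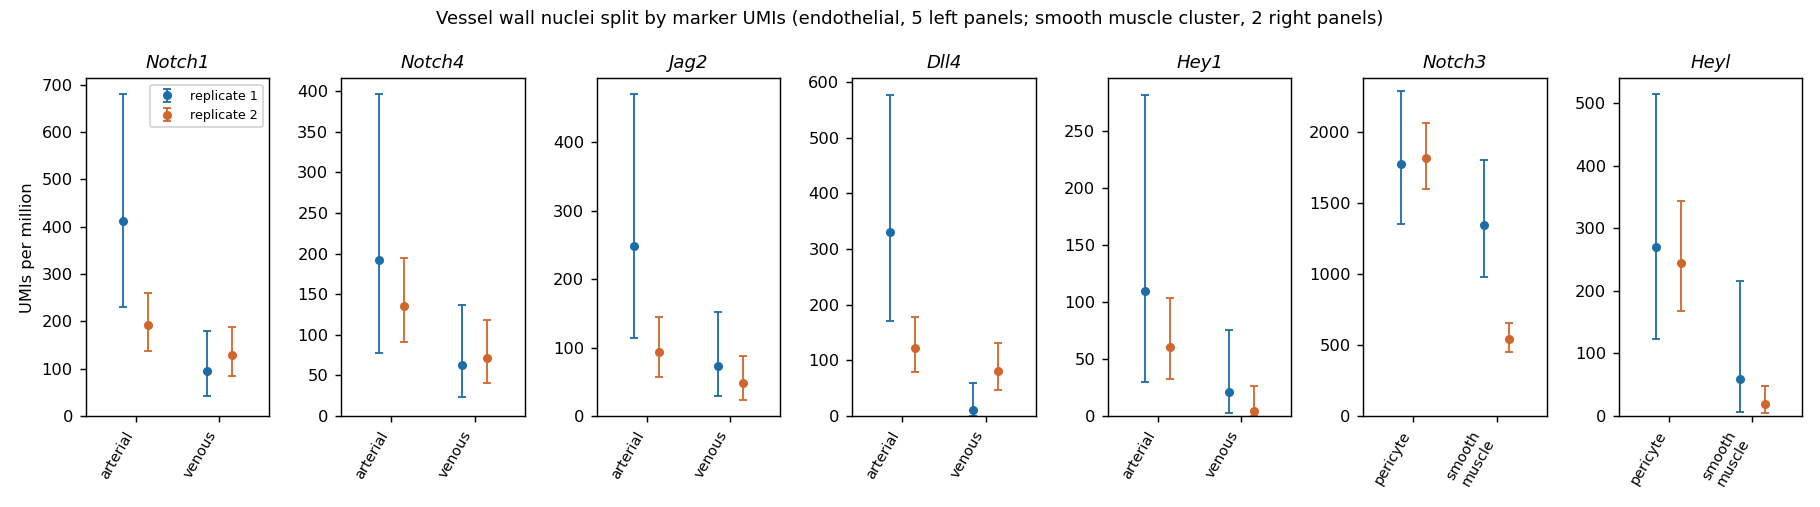
CPM of 5 genes in endothelial nuclei with arterial or with venous marker UMIs (5 left panels) and of Notch3 and Heyl in the smooth muscle-like cluster with more pericyte or more smooth muscle marker UMIs (2 right panels), replicate 1 in blue and replicate 2 in orange, bars 95% exact Poisson intervals, axes linear from 0. Heyl was at 271 and 245 in pericyte-marker nuclei against 59.9 and 18.7.

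The rest of the pathway was followed in 56 further genes, of which 50 passed the filter on low counts. Between vessel wall and immune nuclei, 5 were higher and 4 lower, that is 10% and 8% of those tested beside 7.16% and 9.26% of all genes, and their median log2 difference was -0.24 over the 48 with UMIs in each type. Of the 6 Notch targets among these genes, 3 were tested, with 2 higher in the wall and 1 not called. Those higher were Hes1, a repressor, by 2.86, and Nrarp, a feedback inhibitor, by 3.25 (edgeR adjusted p = 2.79e-05 and 0.000191). Against the other types, Hes1 was called higher in endothelial, smooth muscle and FAP nuclei alike. Hes1 was at 74.1 and 24.2 CPM in endothelial, 90.1 and 38.4 in smooth muscle and 4.13 and 5.88 in immune nuclei. Nrarp was at 111 and 40.7 CPM in endothelial, 60.04 and 13.7 in smooth muscle and 10.3 and 1.96 in immune nuclei. In smooth muscle the Nrarp level rests on 4 and 5 UMIs. Each side by itself was higher than immune nuclei in Hes1 (edgeR adjusted p = 0.000346 for endothelial and 0.000316 for smooth muscle) and in Nrarp (3.04e-06 and 0.0428).

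Among ligands outside the 10, Dll1 followed Dll4. It was at 107 and 52.8 CPM in endothelial nuclei and at 0 UMIs in smooth muscle, at least 9.07-fold higher (edgeR adjusted p = 7.21e-05). The coactivator Maml2 (1.20, 2.15e-06), the corepressor Tle1 (1.33, 0.00157) and the ubiquitin ligase gene Dtx3 (2.03, 2.87e-06) were higher in the wall than in immune nuclei. Between the sides of the wall, Dtx3 was higher in the coat, at 255 and 137 CPM in smooth muscle and 46.3 and 26.4 in endothelial nuclei. It was not particular to the coat, as it was called higher against the other types in mesothelial nuclei too. Lower in the wall were Lfng (-1.24, 0.00198) and Rfng (-2.0, 0.0253), which add sugars to Notch receptors, with Neurl3 (-2.88, 0.00028) and Dtx3l (-1.55, 0.0383). None of these 4 was called lower in endothelial nuclei against immune nuclei alone (edgeR adjusted p = 0.981 for Lfng, 0.0547 for Rfng, 0.103 for Neurl3 and 0.852 for Dtx3l), whereas Lfng, Neurl3 and Dtx3l were in smooth muscle. Against the other types, Neurl3 was called higher in endothelial as well as in immune nuclei. For Lfng the lining and the coat differed, with 148 and 86.9 CPM in endothelial nuclei and 15 and 19.2 in smooth muscle, a log2 difference of 2.44 (edgeR adjusted p = 0.00021). Adam10, the protease of the first cut of a bound receptor, was also higher in endothelial than in smooth muscle nuclei (1.31, 0.00351). The 8 protease genes gave no call between wall and immune nuclei.

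Genes with the profile most like each member were read over the 12 sums of type and library, by Pearson's r of log2(CPM + 1) among 13047 genes. The sums share libraries and types, and r is given as a description. Notch3 was closest to Abcc9 (0.969), a potassium channel subunit of pericytes, then to Actg2 and Ndufa4l2 (both 0.961), and Heyl to Ndufa4l2 (0.935) and Abcc9 (0.932). Dll4 and Hey1 were each other's neighbours (0.959), beside Ccm2l (0.965) for Dll4 and Sox18 (0.961) and Cdh5 (0.951) for Hey1. Notch4 was closest to Fryl and Bmx (both 0.951), and Jag2 to Gm29007 (0.940) and Emcn (0.938), a gene of capillary and venous endothelium. Jag1 was closest to Hrct1 (0.926), Notch1 to Sult1a1 (0.907), Notch2 to Rassf2 (0.940) and Rbpj to Ap2a2 (0.959).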

How the data were processed

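Single-nucleus RNA-seq libraries of young visceral fat from 2 mice were analysed, 1 library per mouse. The authors aligned reads to GRCm39 with CeleScope and deposited raw UMI counts for 56980 genes and the called barcodes, 1 matrix per library and not normalized; the annotation and the use of intronic reads or strand are not given in the sources used here. Nuclei were kept at the limits of the study (over 500 genes, over 1000 UMIs, under 15% mitochondrial UMIs). After log normalization, 1000 variable genes without Notch pathway genes, 30 principal components, Harmony correction of the library (own implementation in numpy 2.4.6) and 20 neighbours, nuclei were clustered by Leiden at a resolution of 0.1 (scanpy 1.11.5, leidenalg 0.10.2, seed 1). Clusters were named from marker lists by a rule set after the clusters had been seen: at least 3 markers and a share of 0.5 of the list higher by a log2 fold of 1 and in 5% of nuclei, with a lead of 0.25 over a rival list. Scrublet marked 1 nucleus per library and so did not work as a doublet caller; no nuclei were removed for it.

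UMIs were summed per library and type (at least 10 nuclei) and all genes tested in 1 fit with edgeR 4.0.16 (R 4.3.3; TMM, filterByExpr, quasi-likelihood F test, library as block, two-sided, Benjamini-Hochberg). The block was used since the sums of a library come from 1 mouse; over 15 pairs of types, deviations of the same library correlated with r from 0.147 to 0.547 (median 0.304, across 10985 genes). On simulated data for vessel wall against immune over 13050 genes, 93 of 100 genes changed 4-fold and 28 of 100 changed 2-fold were called. The changed genes were drawn above a limit on total counts, with a common spread and no library effect. Hey1 and Heyl, at 92 and 171 UMIs in all passing nuclei, lay below that limit. These shares were not computed for genes counted so low. DESeq2 1.42.0 was among 11 alternatives with a test (1 of them, at least 20 nuclei in a sum, left the fit identical), beside leaving out each of 2 libraries and the alternatives the text marks as chosen after seeing the data. All 10 members are named whatever their result, with the 3 genes most like each computed. The members, the pathway list and the markers were chosen with earlier results of these data known. Genes without a UMI were given an upper limit of 3 counts. Promoter windows came from RefSeq and were placed on GRCm39 by exact match.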

Additional observations from a re-analysis of the deposited data

Results flagged for a closer look

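Nuclei and barcodes outside every comparison also held UMIs of the 10 genes, above the limit that a count of 0 allows. Summed over the 10 genes, the large unnamed cluster (422 and 2630 nuclei) had 413 CPM in replicate 1 and 410 CPM in replicate 2. The small unnamed cluster (28 and 44 nuclei) had 899 and 529 CPM, from 67 and 77 UMIs. Barcodes that failed the filters (4511 and 4923) had 390 and 610 CPM. Every group of named samples holds 2 libraries, too few to look for a library far from the others.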

How the results depend on the processing

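The counts of members called were recomputed under 10 alternatives that altered the fit and under 2 added after seeing the data. With a library left out, no spread remains within a type, and effect sizes alone are given. Vessel wall against immune gave 4 higher and 2 lower under these 10. It gave 7 higher with the wall summed as 1 type, beside 1164 of 16704 genes. Without replicate 1, its difference was 1.7 for Dll4, 1.06 for Hey1 and 1.11 for Heyl. Without replicate 2 it was 2.11, 2.65 and 1.67. The median over all 13050 genes was -0.03 without replicate 1 and -0.41 without replicate 2, from -0.06 in the main fit. Endothelial against smooth muscle gave 5 higher and 2 lower except for 3 higher with no replicate block. There, 377 of 13050 genes were higher, against 657 in the main fit. Without replicate 2, Notch1 was at 0.86, where the median over all genes was 0.34. The block of library pairs the types of 1 mouse. Summed over the 6 types against the others, 11 calls higher ranged from 10 to 12 with a test and from 12 to 14 without a library, and 14 calls lower ranged from 12 to 16 and, without a library, from 23 to 26. Counts without a library rest on the fold alone, as no test remains. Counted so, more of all 13050 genes were lower than in the main fit too, in every type without replicate 1. Without replicate 2 this held in every type but adipocytes. The median over all genes was then -0.57 for smooth muscle, -5e-04 for endothelial nuclei and 0.14 or higher for the other types. Whether the rise in lower calls is particular to the members was not tested. A minimum of 20 nuclei in a sum left the fit identical, as the smallest sum has 23 nuclei, and says nothing of stability.

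Among 80 values of single genes, 15 had another sign in at least 1 setting, and 14 of these were not called. In 2 of the 15 the value was called as reported or passed the fold with the other sign, namely Notch3 in endothelial nuclei against the others (-1.34 without nuclei holding mural marker UMIs) and Hey1, not called at first, in immune nuclei against the others (0.40; 0.08 without replicate 1 and -1.67 without replicate 2). In vessel wall against immune, the sign of Notch1 (from -0.47 to 0.73) and Hey1 (from -0.41 to 4.72, the highest with the wall summed as 1 type, where it was called) differed between settings, as did, for example, Dll4 in FAP nuclei (2.32; -0.75 with the mitochondrial limit at 5%) and Rbpj between endothelial and smooth muscle nuclei (from -0.41 to 0.20). With DESeq2 the median over all genes for adipocytes against the others moved from 0.09 to -0.20 on the log2 scale. The cause was not tested. After thinning to 1000 UMIs, 12 of 20 shares of nuclei fell below their counting interval. The precision of smooth muscle values in replicate 1 is limited by 23 nuclei.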
